A study of Mus musculus with 34 samples.

Results

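The integrin subunit genes Itga2, Itga3, Itga5, Itga6, Itgav, Itgb1, Itgb4, Itgb5, Itgb6 and Itgb8 were followed across mouse colon tumour organoids, 10 genes of the 54354 in the deposited table. The members were chosen by name, as alpha and beta chains of epithelial integrins. The group was built around Itga2, which was selected on its low level in the Degs1 knockout libraries relative to Scrambled, so its values in that experiment are given as a description without a test. Poly(A) RNA was sequenced from 34 organoid libraries, all labelled as colon epithelium of genotype AKP. The CRISPR experiment held 9 libraries of Degs1-KO clone1, 9 of Degs1-KO clone2 and 3 of the Scrambled control. The hairpin experiment held 3 libraries labelled shYAP, made with a hairpin against Yap1, and 10 labelled shControl. Degs1 codes for the enzyme that makes ceramide from dihydroceramide, and Yap1 codes for a coactivator of the Hippo pathway. Each knockout clone is a separate line, and the labels do not say whether replicates were separate cultures, so n counts libraries and the p-values measure the spread between libraries, which may be technical.

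Integrins are receptors for the extracellular matrix, each made of 1 alpha and 1 beta chain, and the pair decides which ligand is bound. Colon epithelium uses alpha2beta1 to bind collagen, alpha3beta1 and alpha6beta4 to bind laminins of the basement membrane, and alphav paired with beta5, beta6 or beta8 to bind ligands with the RGD motif, such as vitronectin and the latency peptide of TGF-beta. The beta1 chain is shared by alpha2, alpha3, alpha5, alpha6 and alphav, and beta4 joins alpha6 in hemidesmosomes, which tie the cell to the basement membrane.

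Upstream sequence is shown for the gene that differed most between the organoid lines (Itga2), for the member with the largest change in the opposite direction (Itgb5) and for the shared beta chain (Itgb1). Each line is the 250 bases before the annotated start in RefSeq, build GRCm38.p6, 5′ to 3′ on the strand of the gene. Capitals mark matches, on either strand, to the TEAD core GGAATG, the AP-1 site TGANTCA, the GC box of SP and KLF factors GGGCGG or the TATA box TATAAA.
Itga2 promoter, chr13:114932101-114932350, minus strand: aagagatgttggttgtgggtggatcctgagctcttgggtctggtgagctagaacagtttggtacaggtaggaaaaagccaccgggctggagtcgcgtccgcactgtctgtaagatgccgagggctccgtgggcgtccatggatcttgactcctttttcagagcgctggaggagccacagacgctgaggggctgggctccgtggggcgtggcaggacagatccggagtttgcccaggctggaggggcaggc
Itgb5 promoter, chr16:33829415-33829664, plus strand: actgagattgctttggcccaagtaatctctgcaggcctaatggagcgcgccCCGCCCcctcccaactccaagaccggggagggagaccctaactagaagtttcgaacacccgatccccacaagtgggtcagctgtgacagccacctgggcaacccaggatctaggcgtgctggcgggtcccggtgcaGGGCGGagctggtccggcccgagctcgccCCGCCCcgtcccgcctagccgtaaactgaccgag
Itgb1 promoter, chr8:128685404-128685653, plus strand: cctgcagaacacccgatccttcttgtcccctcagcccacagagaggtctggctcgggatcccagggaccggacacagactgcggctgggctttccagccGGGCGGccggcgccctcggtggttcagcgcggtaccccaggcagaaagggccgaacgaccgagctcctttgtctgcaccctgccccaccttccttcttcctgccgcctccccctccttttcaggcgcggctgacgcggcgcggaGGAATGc

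The Itga2 window held none of the 4 motifs. The Itgb5 window held 3 GC boxes, and the Itgb1 window held 1 GC box and 1 TEAD core, with no overlap between matches. Across 32851 mouse promoters of the same length, 32.7% held a GC box, 12.6% a TEAD core, 12.4% a TATA box and 6.75% an AP-1 site. Promoters were matched for 8 of the 10 members, all but Itga6 and Itgb4, and the Itgb1 match was the only TEAD core among them. A match describes letters in this window and is not evidence of binding.

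Library totals ran from 883253 counts in clone1 replicate 2 to 6597099, and levels are given as CPM, a count scaled to the normalised library total. Degs1 averaged 2.41 ± 1.32 CPM in clone1 and 1.71 ± 0.89 CPM in clone2 (SD, n = 9 each), against 7.74 ± 2.62 CPM in Scrambled (n = 3), with all 18 knockout libraries below all 3 Scrambled libraries. Yap1 averaged 19.1 ± 1.13 CPM in the libraries labelled shYAP (n = 3) and 16.6 ± 4.14 CPM in shControl (n = 10). Its log2 fold change of 0.20 ± 0.23 (SE; adjusted p = 0.619, edgeR) goes against the label, and shYAP here stands for the libraries so labelled. Summed over 8 epithelial markers, levels ran from 2725 to 3522 CPM in clone1, from 1938 to 2643 CPM in clone2 and from 2362 to 2668 CPM in Scrambled, and from 1753 to 1986 CPM in shYAP and 1882 to 2428 CPM in shControl. That sum does not describe each marker: Cdx2, 1 of the 8, ran from 0.384 to 13.2 CPM over the 34 libraries. Fibroblast markers summed to at most 1.18 CPM, with Col1a2, Col3a1 and Pdgfrb at 0, endothelial markers to at most 3.12 CPM with Cdh5 and Kdr at 0, and muscle markers to at most 0.562 CPM with Des at 0. The 6 immune markers, with Cd3e at 0, summed to 22.8 to 29.0 CPM in clone1, 17.5 to 31.5 CPM in clone2 and 31.7 to 38.4 CPM in Scrambled, and to 11.4 to 14.8 CPM in shYAP and 14.5 to 40.9 CPM in shControl. Cd68 alone, which reached 40.9 CPM, made up nearly all of that sum. The part of these marker differences in the results was not tested, and in bulk RNA fewer expressing cells and less RNA per cell cannot be told apart.

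Itga2 was nearly absent from clone2 and moderately expressed in every other line. The gene (ENSMUSG00000015533, chromosome 13, 114833081 to 114932100, minus strand, mm10) codes for the collagen-binding alpha2 chain. In clone1 its level ran from 12.3 to 25.5 CPM with a median of 21.4 CPM, in clone2 from 0.205 to 1.97 CPM with a median of 0.943 CPM, and the Scrambled libraries stood at 35.6, 35.6 and 27.4 CPM. Every clone1 library lay below every Scrambled library, and every clone2 library lay below every library of the other 4 groups. Against Scrambled, libraries did not overlap for 10.8% of all genes in clone1 and 24.7% in clone2, and Itga2 was chosen for its low level there. The clone2 levels rest on 1 to 9 counts a library, against 135 to 230 counts in Scrambled. The fitted log2 fold change was -5.01 ± 0.25 for clone2 against Scrambled (SE), a level 32.2-fold lower, and -0.70 ± 0.21 for clone1 against Scrambled, 1.62-fold lower. Both clones together averaged -2.85 ± 0.20 against Scrambled, a mean of unlike values, and clone2 stood at -4.31 ± 0.22 against clone1. Each SE given for Itga2 in comparisons with CRISPR libraries reflects the spread between libraries. It takes no account of how Itga2 was chosen.

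The Itga2 levels of clone1 lay largely within those of the hairpin control. shControl libraries ran from 12.4 to 36.5 CPM with a median of 15.9 CPM, a range that holds 8 of the 9 clone1 libraries. With shControl in place of Scrambled the clone1 value was 0.08 on the log2 scale, the opposite sign, while the clone2 value was -4.20. Scrambled itself stood 0.78 ± 0.23 above shControl on the log2 scale, and experiment and line cannot be told apart in that difference. shControl replicates 1 to 4, whose library numbers stand apart from all others, averaged 25.3 ± 9.39 CPM, and replicates 5 to 10 averaged 15.5 ± 3.26 CPM (SD, n = 4 and 6).

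In the hairpin experiment, whose libraries had no part in the choice of Itga2, its level did not pass the test. The libraries labelled shYAP stood at 23.0, 14.2 and 17.5 CPM, all inside the shControl range. The log2 fold change was -0.08 ± 0.28 (95% interval -0.66 to 0.51, adjusted p = 0.893, edgeR), and its sign changed to 0.22 when shControl replicates 5 to 10 alone were used.

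**Figure D1:**
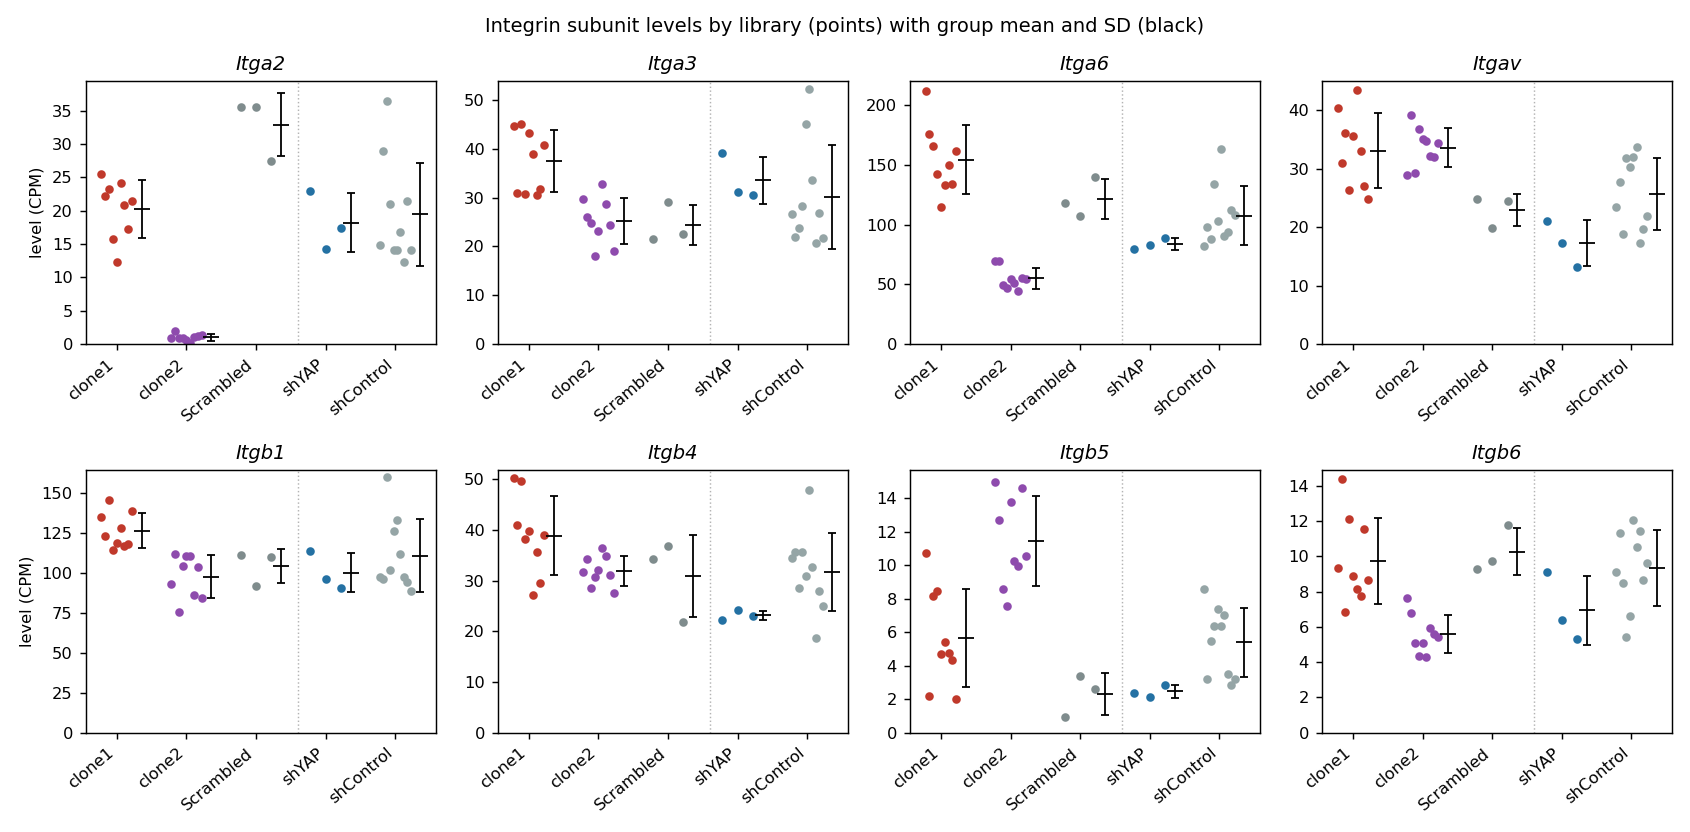
Level of the 8 integrin subunits that passed the low-count filter, in CPM on linear axes, with 1 point per library and the group mean with its SD in black, knockout clones and shYAP each left of their controls. Itga2 is near 0 in the 9 clone2 libraries, and Itga6 there lies between 44.8 and 69.6 CPM, below all clone1 and Scrambled libraries.

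Among the laminin receptor chains, Itga6 was lower in clone2, and Itga3 was higher in clone1. Itga6 (ENSMUSG00000027111, chromosome 2, 71745616 to 71858416, plus strand, mm10) codes for the alpha6 chain, which pairs with beta4 or beta1. Its level ran from 115.0 to 212 CPM in clone1 (median 150.3), from 44.8 to 69.6 CPM in clone2 (median 54.5), and was 118, 107 and 140.0 CPM in Scrambled. All clone2 libraries lay below all clone1 and all Scrambled libraries, while clone1 and Scrambled overlapped. Itga6 fell by 1.16 ± 0.14 on the log2 scale in clone2 against Scrambled (adjusted p = 2.33e-08, edgeR) and by 1.51 ± 0.11 in clone2 against clone1 (adjusted p = 1.23e-14). In clone1 against Scrambled the value was 0.35 ± 0.15 and did not pass (adjusted p = 0.118), although it did against shControl (0.52, adjusted p = 4.26e-04). The mean over both clones, -0.41 ± 0.13 (adjusted p = 0.0255), thus combined values of opposite sign, and its call was lost without Scrambled replicate 1 (-0.43, adjusted p = 0.0726) or replicate 3 (-0.30, adjusted p = 0.242).

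Itga3 (ENSMUSG00000001507, chromosome 11, 95044474 to 95076801, minus strand, mm10), the alpha3 chain that pairs with beta1 on laminin, ran from 30.6 to 45.0 CPM in clone1 (median 38.9) and from 18.1 to 32.7 CPM in clone2 (median 24.8), against 21.5, 29.1 and 22.6 CPM in Scrambled. All clone1 libraries lay above all Scrambled libraries, and clone2 overlapped both. Itga3 rose by 0.62 ± 0.18 in clone1 against Scrambled (adjusted p = 0.0152, edgeR). That call was lost without Scrambled replicate 1 (0.54, adjusted p = 0.12) or replicate 3 (0.56, adjusted p = 0.093), and with shControl as the control (0.33, adjusted p = 0.105). Clone2 differed from Scrambled by 0.02 ± 0.17 (95% interval -0.34 to 0.37, adjusted p = 0.957) and fell by 0.61 ± 0.12 against clone1 (adjusted p = 8.91e-05).

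Itgb4 (ENSMUSG00000020758, chromosome 11, 115974709 to 116008412, plus strand, mm10), the partner of alpha6 in hemidesmosomes, did not pass the test against Scrambled in either clone. It averaged 38.9 ± 7.79 CPM in clone1, 31.9 ± 2.90 CPM in clone2 and 30.9 ± 8.06 CPM in Scrambled, with Scrambled replicate 3 lowest at 21.7 CPM, and the 3 groups overlapped. The log2 fold change was 0.33 ± 0.17 in clone1 (adjusted p = 0.225) and 0.02 ± 0.17 in clone2 (adjusted p = 0.942). Clone2 lay below clone1 by a log2 difference of -0.31 ± 0.12 (adjusted p = 0.0317, edgeR), a call lost with the size factors of DESeq2 (adjusted p = 0.0517).

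Among the chains of the RGD-binding receptors, Itgav and Itgb5 were called higher than Scrambled in both clones, and Itgb6 lower in clone2. Itgav (ENSMUSG00000027087, chromosome 2, 83724397 to 83806916, plus strand, mm10) codes for alphav, the alpha chain shared by these receptors. Its level ran from 24.8 to 43.5 CPM in clone1 (median 33.0) and from 28.9 to 39.2 CPM in clone2 (median 34.4), against 24.8, 19.8 and 24.4 CPM in Scrambled. All 18 knockout libraries lay above all 3 Scrambled libraries; the nearest pair of libraries both round to 24.8 CPM. The log2 fold change was 0.54 ± 0.16 in clone1 (adjusted p = 0.0243, edgeR), 0.54 ± 0.16 in clone2 (adjusted p = 0.00970) and 0.54 ± 0.15 over both clones (adjusted p = 0.0119). Clone2 and clone1 differed by 0.00 ± 0.11 (95% interval -0.23 to 0.23, adjusted p = 0.997). All 3 calls against Scrambled were lost without Scrambled replicate 2, the lowest of its group, where each value was 0.44 (adjusted p = 0.192 in clone1, 0.0896 in clone2 and 0.13 over both). The clone1 call was also lost without Scrambled replicate 1 (0.59, adjusted p = 0.0632) or replicate 3 (0.58, adjusted p = 0.0612). With knockout replicates 7 to 9 alone the clone1 value was 0.29 and did not pass (adjusted p = 0.253, edgeR).

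Itgb5 (ENSMUSG00000022817, chromosome 16, 33829665 to 33949338, plus strand, mm10), whose beta5 chain pairs with alphav on vitronectin, had the largest rise of the tested members. It ran from 2.04 to 10.8 CPM in clone1 (median 4.77) and from 7.55 to 14.996 CPM in clone2 (median 10.5), and was 0.925, 3.40 and 2.64 CPM in Scrambled. All clone2 libraries lay above all Scrambled libraries, while clone1 overlapped both. The Scrambled levels rest on 4, 22 and 13 counts. Itgb5 rose by 2.21 ± 0.39 on the log2 scale in clone2, 4.63-fold (adjusted p = 2.98e-05, edgeR), and by 1.74 ± 0.38 over both clones (adjusted p = 9.25e-04). In clone1 it rose by 1.27 ± 0.40 (adjusted p = 0.0278), a call lost without Scrambled replicate 1 (0.93, adjusted p = 0.211) or replicate 3 (1.33, adjusted p = 0.0788). With knockout replicates 7 to 9 alone the clone1 value was 0.59 and did not pass (adjusted p = 0.404, edgeR). Clone2 lay above clone1 by 0.94 ± 0.24 (adjusted p = 0.00132), a call lost with knockout replicates 1 to 6 alone (0.65, adjusted p = 0.0576), where replicates 7 to 9 alone gave 1.68.

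Against the hairpin control the 2 clones stood apart for Itgb5. shControl libraries ran from 2.82 to 8.57 CPM (median 5.93), a range that overlaps clone1, and with shControl in place of Scrambled the clone1 value was 0.11 (adjusted p = 0.81) while clone2 was 1.08 (adjusted p = 3.51e-04). Scrambled itself lay below shControl by a log2 difference of -1.16 ± 0.40 that did not pass the test (adjusted p = 0.114).

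Itgb6 (ENSMUSG00000026971, chromosome 2, 60598292 to 60722643, minus strand, mm10), the beta6 chain of an epithelial receptor that activates latent TGF-beta, ran from 6.83 to 14.4 CPM in clone1 (median 8.89) and from 4.30 to 7.64 CPM in clone2 (median 5.43), against 9.25, 9.75 and 11.8 CPM in Scrambled. All clone2 libraries lay below all Scrambled libraries. Itgb6 fell by 0.90 ± 0.24 in clone2 against Scrambled (adjusted p = 0.00297, edgeR) and by 0.79 ± 0.18 against clone1 (adjusted p = 4.55e-04). In clone1 against Scrambled its value was -0.12 ± 0.24 (adjusted p = 0.823).

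The alpha5 chain of the fibronectin receptor and the beta8 chain of a further TGF-beta activating receptor were barely detected. Itga5 (ENSMUSG00000000555, chromosome 15, 103344286 to 103366763, minus strand, mm10) had 5 counts in 2 of the 9 clone2 libraries, 0 counts in clone1 and Scrambled, 2 counts in 1 shYAP library and 3 counts in 1 shControl library. Itgb8 (ENSMUSG00000025321, chromosome 12, 119158022 to 119238802, minus strand, mm10) had 1 count in clone2 and 1 in shControl, and 0 elsewhere. A summed count of 0, taken as up to 3 counts, allows a level of up to 0.0808 CPM in clone1, 0.191 CPM in Scrambled and 0.232 CPM in shYAP, covering counting error alone. Neither gene passed the low-count filter, so 8 of the 10 members entered the fits.

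Itgb1 (ENSMUSG00000025809, chromosome 8, 128685654 to 128733200, plus strand, mm10), the beta chain shared by the collagen, laminin and fibronectin receptors, was the most abundant beta chain in all 5 groups. It ran from 114 to 145 CPM in clone1 (median 123) and from 75.3 to 112 CPM in clone2 (median 104), and was 111, 92.0 and 109.9 CPM in Scrambled. All clone1 libraries lay above all clone2 and all Scrambled libraries, and clone2 overlapped Scrambled. Clone2 fell by 0.40 ± 0.09 against clone1 (adjusted p = 2.07e-04, edgeR), while neither clone passed against Scrambled (0.28 ± 0.12, adjusted p = 0.126 in clone1, and -0.11 ± 0.12, adjusted p = 0.514 in clone2).

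**Figure D2:**
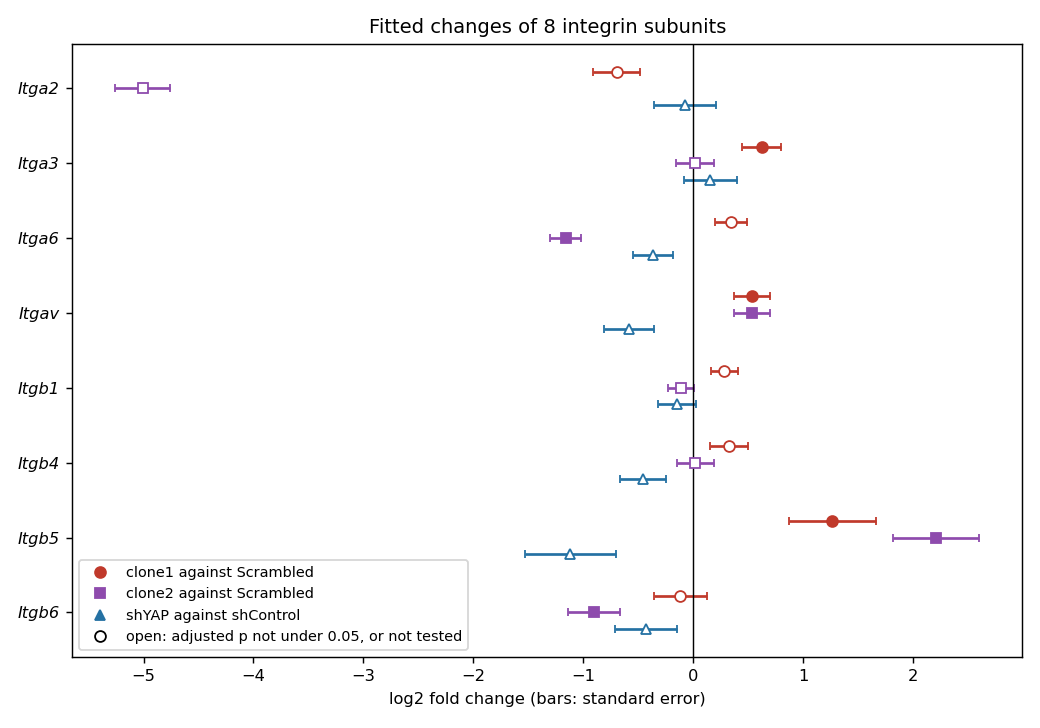
Log2 fold change with its standard error (bars) of 8 integrin subunits in clone1 against Scrambled (circles), clone2 against Scrambled (squares) and shYAP against shControl (triangles), where filled symbols passed an adjusted p of 0.05 and the Itga2 values of the clones were not tested. Itga2 in clone2 lies at -5.01, and Itgb5 lies at 1.27 in clone1, 2.21 in clone2 and -1.12 in shYAP.

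The called members were read against all genes tested. Over both clones together, 3 of the 7 tested members passed, Itgav and Itgb5 higher and Itga6 lower, where 17.6% of all 11514 genes did. In clone1 3 of 7 passed, all higher, against 12.7% of all genes, and the count was 0 without Scrambled replicate 1, without replicate 3, or with knockout replicates 7 to 9 alone. In clone2 4 of 7 passed, 2 higher and 2 lower, against 33.1% of all genes, and the count was 3 or 4 in each of the 13 alternatives run. Between the clones 6 of 7 passed, Itgb5 higher in clone2 and the other 5 lower, where 49.1% of all genes passed. Groups without overlap of libraries were found for 1 of 7 members over both clones (4.22% of all genes), for 3 of 7 in clone1 (10.8%), for 4 of 7 in clone2 (24.7%) and for 2 of 7 between the clones (11.7%). Without Itga2, the median log2 fold change of the 7 tested members was 0.35 in clone1, 0.02 in clone2 and -0.40 between the clones, beside medians of all genes of 0.03, -0.03 and -0.05. The comparisons with Scrambled share its 3 libraries.

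None of the 8 tested members passed in the hairpin experiment. In shYAP against shControl 0 of 8 members passed with edgeR and 0 with DESeq2, where 11.4% of all 11094 genes passed with edgeR, and 3 members had an unadjusted p under 0.05. None had groups without overlap, against 11.3% of all genes. The 3 were Itgb5 at 2.40, 2.13 and 2.87 CPM in shYAP (-1.12 ± 0.41, adjusted p = 0.0813), Itgav at 21.1, 17.3 and 13.3 CPM (-0.59 ± 0.23, adjusted p = 0.0975) and Itgb4 at 22.3, 24.2 and 23.0 CPM (-0.46 ± 0.21, adjusted p = 0.17). Itgav passed when all 34 libraries shared a fit (-0.58, adjusted p = 0.0306). Itga6 had a value of -0.36 ± 0.18 (adjusted p = 0.205), Itgb6 of -0.43 ± 0.28 (adjusted p = 0.349), Itgb1 of -0.15 ± 0.17 (adjusted p = 0.627) and Itga3 of 0.16 ± 0.24 (adjusted p = 0.731).

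The knockout effect and the shYAP effect differed for the 2 alphavbeta5 chains. The difference between the effects was 2.87 ± 0.57 for Itgb5 (adjusted p = 2.58e-04, edgeR) and 1.12 ± 0.26 for Itgav (adjusted p = 0.00185). Each effect was taken against its own control, so the gap between the controls enters the difference. For Itgb5 Scrambled stood at -1.16 ± 0.40 against shControl. With shControl in place of Scrambled, its knockout value was 0.60 over both clones and 0.11 in clone1. Of the 7 tested members, 2 passed, where 18.8% of all 11960 genes did. Itgb4 had a difference of 0.63 ± 0.26 that did not pass (adjusted p = 0.0775), and Itga2, untested, stood at -2.78 ± 0.33. Between the 2 controls, Scrambled against shControl, 0 of 7 members passed with edgeR and 0 with DESeq2, 1 had an unadjusted p under 0.05, and 2.95% of all genes passed.

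Scaled by length, the makeup of the 5 member alpha chains was described for each group. Itga2, chosen for its low level in the knockout libraries, is 1 of the 5. Itga7, an alpha chain outside the members that passed the low-count filter, was not included. Levels per kilobase of merged exon allow genes to be set side by side, although the transcript forms in use are not known. Itga6 was the most abundant alpha chain in all groups, at 17.1 ± 3.16 CPM per kb in clone1 and 6.11 ± 0.98 in clone2, against 13.5 ± 1.85 in Scrambled, and at 9.27 ± 0.52 in shYAP against 11.9 ± 2.73 in shControl. In Scrambled, Itga2 at 4.61 ± 0.66 and Itga3 at 4.27 ± 0.72 CPM per kb did not differ beyond their SD, and Itgav followed at 2.14 ± 0.26. In clone1 the order was Itga3 at 6.55 ± 1.11, then Itgav at 3.08 ± 0.60 and Itga2 at 2.84 ± 0.61, the last pair within their SD. In clone2 Itga3 stood at 4.41 ± 0.84, Itgav at 3.13 ± 0.32 and Itga2 at 0.141 ± 0.068 CPM per kb.

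As a share of the summed length-scaled level of the 5 alpha chains, Itga2 made up 9.57 ± 1.35% in clone1 and 1.02 ± 0.45% in clone2, against 18.9 ± 3.34% in Scrambled, and 13.1 ± 2.23% in shYAP against 12.6 ± 5.43% in shControl. Itgav made up 10.5 ± 1.95% in clone1 and 22.8 ± 3.15% in clone2, against 8.72 ± 0.91% in Scrambled, and 8.25 ± 1.51% in shYAP against 10.8 ± 2.01% in shControl. Itga3 made up 22.3 ± 3.56% in clone1 and 31.8 ± 4.70% in clone2, against 17.5 ± 3.39% in Scrambled. Its share was 30.3 ± 2.21% in shYAP and 23.3 ± 4.98% in shControl, so a high share was not particular to clone2. The Itga3 share stood higher in clone2 than in Scrambled although its level did not, since the sum of these chains was lower. The sum of the 5 alpha chains was 13.8 ± 1.45 CPM per kb in clone2, against 24.5 ± 0.94 in Scrambled and 29.6 ± 4.30 in clone1. Both Itga2 (0.141 in clone2, 4.61 in Scrambled) and Itga6 (6.11 in clone2, 13.5 in Scrambled) were lower in that clone. Because Itga2 enters the sum, the shares of the other chains in the clones follow in part from its choice. Shares without Itga2 were not computed.

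The beta chains kept 1 order at the top. Itgb1 made up 78.6 ± 2.99% of the summed length-scaled level of the 5 beta chains in clone1 and 73.6 ± 2.56% in clone2, against 79.6 ± 4.25% in Scrambled, and 83.1 ± 1.23% in shYAP against 78.5 ± 3.47% in shControl. Itgb4 came next in every group, at 5.54 ± 1.11 CPM per kb in clone1 and 4.55 ± 0.41 in clone2, against 4.41 ± 1.15 in Scrambled. In clone2 Itgb5 followed at 3.22 ± 0.75 CPM per kb, above Itgb6 at 0.785 ± 0.15, whereas in Scrambled Itgb6 at 1.44 ± 0.19 lay above Itgb5 at 0.654 ± 0.36. In clone1 Itgb5 at 1.59 ± 0.82 and Itgb6 at 1.37 ± 0.34 did not differ beyond their SD, nor did they in shControl, at 1.52 ± 0.58 and 1.31 ± 0.30.

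**Figure D3:**
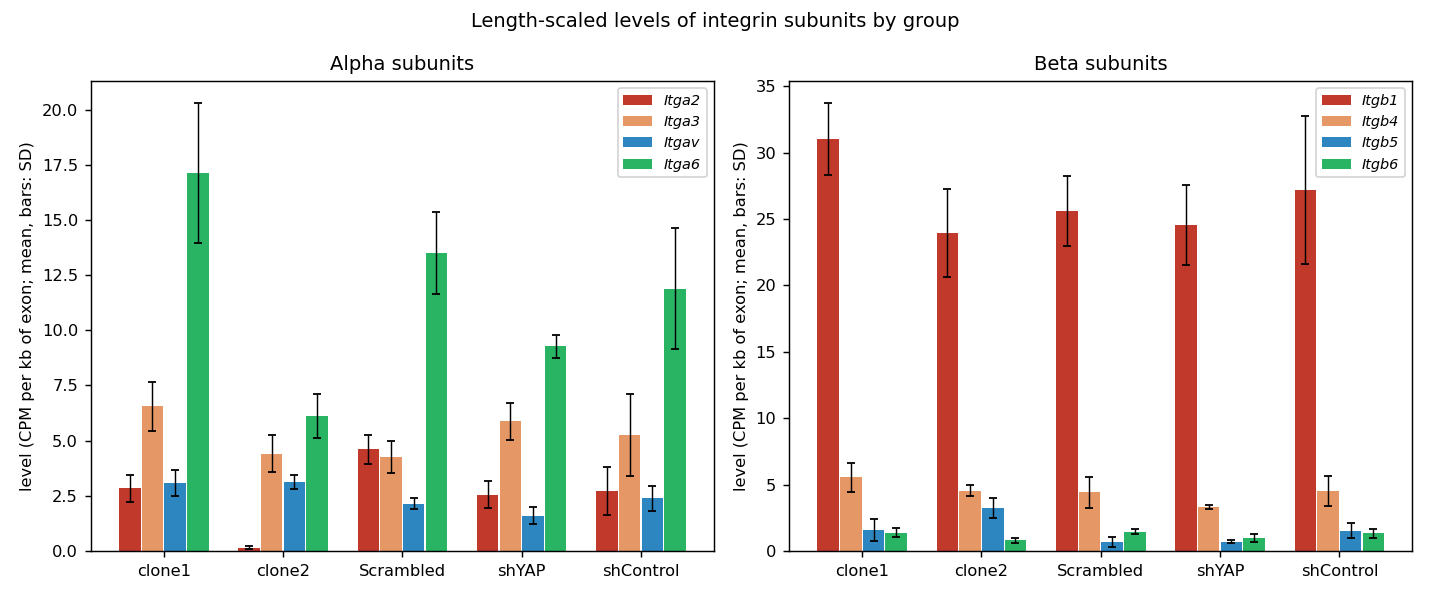
Mean level in CPM per kb of merged exon, with the SD over libraries as bars, of 4 alpha chains (left) and 4 beta chains (right) in each group; Itga5 and Itgb8 are left out as near 0. Itga6 and Itgb1 are the most abundant chains in all groups, and in clone2 Itga2 lies at 0.141 and Itgb5 at 3.22 CPM per kb.

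Genes were ranked by how closely their group levels resembled those of Itga2. Among 6629 candidate genes, those whose mean over the groups reached 3 on the log2 CPM scale, likeness was measured as the root mean square difference between centred group means of log2 CPM over the 5 groups. Of the 5 nearest genes, 4 are described. The NAD hydrolase Cd38 lay at a difference of 0.42, with 27.0 ± 7.54 CPM in clone1 and 1.39 ± 0.53 CPM in clone2, against 30.7 ± 5.14 CPM in Scrambled. Ddah1, which breaks down methylated arginine, lay at 0.44, with 34.9 ± 4.79 CPM in clone1 and 1.29 ± 0.46 CPM in clone2, against 27.5 ± 3.11 CPM in Scrambled. The stress-induced cytokine Gdf15 lay at 0.46, with 34.7 ± 8.22 CPM in clone1 and 5.25 ± 2.97 CPM in clone2, against 53.1 ± 4.08 CPM in Scrambled. The membrane protein gene Tm4sf20 lay at 0.48, with 288 ± 67.4 CPM in clone1 and 8.98 ± 4.42 CPM in clone2, against 169.8 ± 5.70 CPM in Scrambled. The clone1 means of Ddah1 and Tm4sf20 thus lay above Scrambled, whereas that of Itga2 lay below it. With 5 groups and 1 group far from the rest, this ranking is dominated by clone2. A low clone2 level in the named genes therefore follows from how they were picked.

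**Figure D4:**
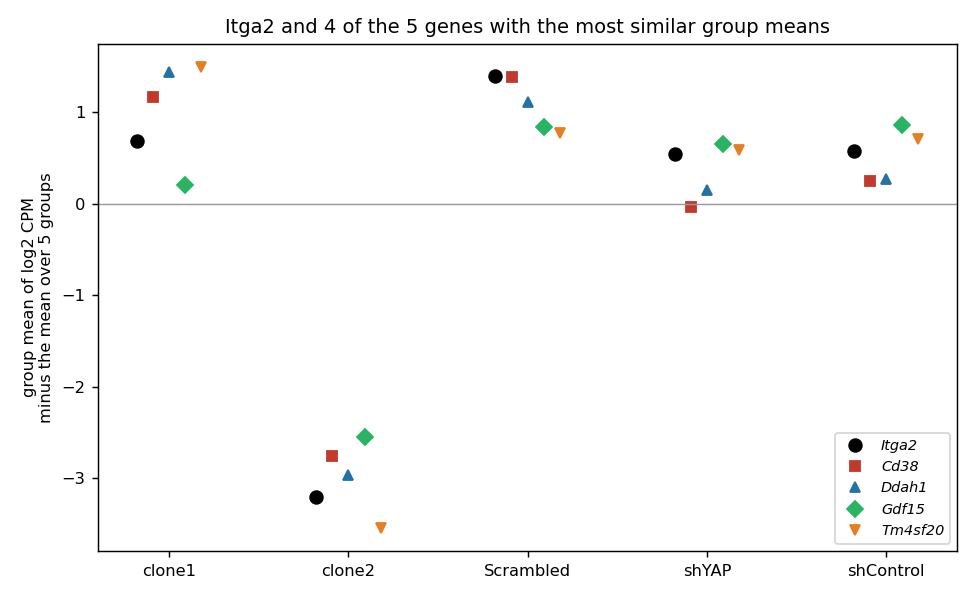
Group means of log2 CPM, each minus the mean of its gene over the 5 groups, for Itga2 (black) and 4 of the 5 genes with the smallest root mean square difference from it. In clone2 Itga2 lies at -3.20 and Cd38 at -2.75, and the plotted genes differ most from one another in clone1.

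Of 17 other integrin subunits, 6 had 0 counts in all libraries, and Itga7 alone passed the low-count filter. Itga7, a laminin-binding alpha chain best known from muscle, averaged 9.60 ± 3.52 CPM in clone1 and 1.69 ± 0.92 CPM in clone2, against 4.81 ± 1.56 CPM in Scrambled, and 0.610 ± 0.53 CPM in shYAP against 4.23 ± 1.78 CPM in shControl. It fell in clone2 against Scrambled (-1.57 ± 0.38, adjusted p = 0.00136, edgeR) and against clone1 (-2.50 ± 0.29, adjusted p = 4.00e-09), and in shYAP against shControl (-2.70 ± 0.68, adjusted p = 0.0136). The shYAP call was lost without shYAP replicate 1 (-2.14, adjusted p = 0.0792).

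Among the proteins that link integrins to actin and signal from them, 28 of 35 listed genes were tested in the knockout experiment. In clone2 against Scrambled 1 was higher, 7 were lower and 20 did not pass, a share called below the 33.1% of all genes, with a list median of -0.30 beside -0.03 for all genes. In clone1 1 was higher, 0 were lower and 27 did not pass, where 12.7% of all genes were called, with a list median of -0.01 beside 0.03. Talin 2 (Tln2), which couples beta tails to actin, averaged 12.1 ± 3.68 CPM in clone2 against 29.9 ± 6.70 CPM in Scrambled (-1.32 ± 0.21, adjusted p = 5.16e-06, edgeR), and its value was -0.78 with shControl as the control. The actin crosslinker filamin A (Flna) averaged 25.9 ± 5.73 CPM in clone2 against 50.3 ± 4.36 CPM in Scrambled (-0.98 ± 0.24, adjusted p = 0.00218). Lims2, an adaptor of the integrin-linked kinase complex, averaged 12.3 ± 5.80 CPM in clone2 against 2.51 ± 0.24 CPM in Scrambled (2.27 ± 0.47, adjusted p = 3.31e-04). Lims2 lies on chromosome 18, whose 291 tested genes had a median of 0.47 in clone2 against Scrambled. Focal adhesion kinase (Ptk2) was the gene that rose in clone1, at 34.3 ± 4.36 CPM against 24.5 ± 2.46 CPM in Scrambled (0.51 ± 0.14, adjusted p = 0.0157), a call lost without Scrambled replicate 1 (0.44, adjusted p = 0.115) or replicate 2 (0.49, adjusted p = 0.086).

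In shYAP against shControl 29 adaptor genes were tested, of which 1 was higher and 1 lower, a share below the 11.4% of all genes called. Flna averaged 78.5 ± 3.97 CPM in shYAP against 41.3 ± 10.7 CPM in shControl (0.91 ± 0.20, adjusted p = 0.00596, edgeR). The docking protein Nedd9 averaged 20.3 ± 1.95 CPM in shYAP against 32.9 ± 7.98 CPM in shControl (-0.70 ± 0.22, adjusted p = 0.0391), and its call was lost when any 1 of the 3 shYAP libraries was left out (adjusted p from 0.0982 to 0.177).

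Of 4 hemidesmosome partners 3 were tested, and dystonin (Dst), which links the plaque to keratin filaments, was the gene called in clone2, where 33.1% of all genes were called. It averaged 4.71 ± 2.11 CPM in clone2 against 12.3 ± 3.19 CPM in Scrambled (-1.41 ± 0.28, adjusted p = 1.76e-04, edgeR), and 15.4 ± 4.35 CPM in clone1. Plectin (Plec), the other plaque linker, averaged 35.6 ± 4.92 CPM in clone1 against 25.2 ± 6.32 CPM in Scrambled (0.49 ± 0.17, adjusted p = 0.0488, edgeR). In clone1 12.7% of all genes were called. The Plec call was lost in 9 of 13 alternatives, among them without Scrambled replicate 1 (0.30, adjusted p = 0.389) or replicate 3 (0.55, adjusted p = 0.0849). With shControl, at 31.4 ± 5.92 CPM, as the control, the clone1 value was 0.18 (adjusted p = 0.337, edgeR).

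Of 22 basement membrane ligands 11 were tested, with 3 higher and 0 lower in clone2 against Scrambled, where 33.1% of all genes were called, and 0 called in clone1, where 12.7% were. The list median was -0.09 in clone2 beside -0.03 for all genes, and 0.28 in clone1 beside 0.03. The laminin chain Lama3, a ligand of the alpha3 and alpha6 integrins, averaged 18.4 ± 2.06 CPM in clone2 against 7.85 ± 1.92 CPM in Scrambled (1.21 ± 0.23, adjusted p = 6.26e-05, edgeR), and it too lies on chromosome 18. In shYAP against shControl 1 was higher and 1 lower, where 11.4% of all genes were called.

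Of 28 interstitial and RGD ligands 8 were tested, with 2 higher and 3 lower in clone2 against Scrambled, where 33.1% of all genes were called, and 0 higher and 1 lower in clone1, a share near the 12.7% of all genes. Osteopontin (Spp1), an RGD ligand of alphav integrins, averaged 10.5 ± 2.39 CPM in clone2 against 40.7 ± 5.53 CPM in Scrambled (-1.96 ± 0.19, adjusted p = 1.44e-10, edgeR). Scrambled Spp1 itself lay above shControl by 1.16 ± 0.20 (adjusted p = 2.22e-04), and with shControl in place of Scrambled the clone2 value was -0.78 (adjusted p = 8.7e-05). The matricellular genes Ccn2 (-2.72 ± 0.27, adjusted p = 2.47e-10) and Ccn1 (-1.20 ± 0.32, adjusted p = 0.00315) fell as well, and with shControl as the control their values were -1.89 for Ccn2 and -1.83 for Ccn1. The 2 higher genes were Mfge8 and Ltbp4. Mfge8 averaged 65.5 ± 10.7 CPM in clone2, against 35.5 ± 2.56 CPM in Scrambled and 48.2 ± 16.3 CPM in shControl. Against Scrambled it rose by 0.86 ± 0.17 (adjusted p = 1.08e-04, edgeR). Ltbp4 rose by 1.56 ± 0.61 (adjusted p = 0.0450), a call lost when any 1 of the 3 Scrambled libraries was left out (adjusted p from 0.0952 to 0.165). With shControl as the control Ltbp4 stood at 0.28 (adjusted p = 0.558). Thrombospondin 1 (Thbs1), which binds collagen and alphav integrins, averaged 2.20 ± 1.13 CPM in clone1 against 5.68 ± 1.98 CPM in Scrambled (-1.23 ± 0.35, adjusted p = 0.0151), a call lost without Scrambled replicate 1 (-1.07, adjusted p = 0.113) or replicate 3 (-1.09, adjusted p = 0.0977). In shYAP against shControl 2 were higher and 1 lower, where 11.4% of all genes were called. Thbs1 rose by 1.61 ± 0.23 (adjusted p = 9.41e-05), to 31.8 ± 8.12 CPM in shYAP against 10.4 ± 2.67 CPM in shControl, and Spp1 rose by 1.04 ± 0.21 (adjusted p = 0.00265). Ccn1 fell, to 7.77 ± 1.03 CPM in shYAP against 14.8 ± 4.70 CPM in shControl (-0.92 ± 0.30, adjusted p = 0.0460), a call lost when any 1 of the 3 shYAP libraries was left out (adjusted p from 0.117 to 0.188).

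Besides Itga2, 5 other collagen receptors were listed, and the kinase receptor Ddr1 was the 1 tested. It averaged 16.7 ± 4.04 CPM in clone1 and 11.9 ± 3.11 CPM in clone2, against 9.78 ± 1.98 CPM in Scrambled. Ddr1 rose by 0.80 ± 0.25 in clone1 (adjusted p = 0.0251, edgeR), where 12.7% of all genes were called. That call was lost without Scrambled replicate 2 (0.75, adjusted p = 0.134) or replicate 3 (0.70, adjusted p = 0.141). With shControl, at 13.7 ± 5.01 CPM, as the control, the clone1 value was 0.30 (adjusted p = 0.282, edgeR). Clone2 lay below clone1 by a log2 difference of -0.54 ± 0.17 (adjusted p = 0.00807, edgeR), where 49.1% of all genes passed. With knockout replicates 7 to 9 alone that difference was -0.49 and did not pass (adjusted p = 0.0979).

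**Figure D5:**
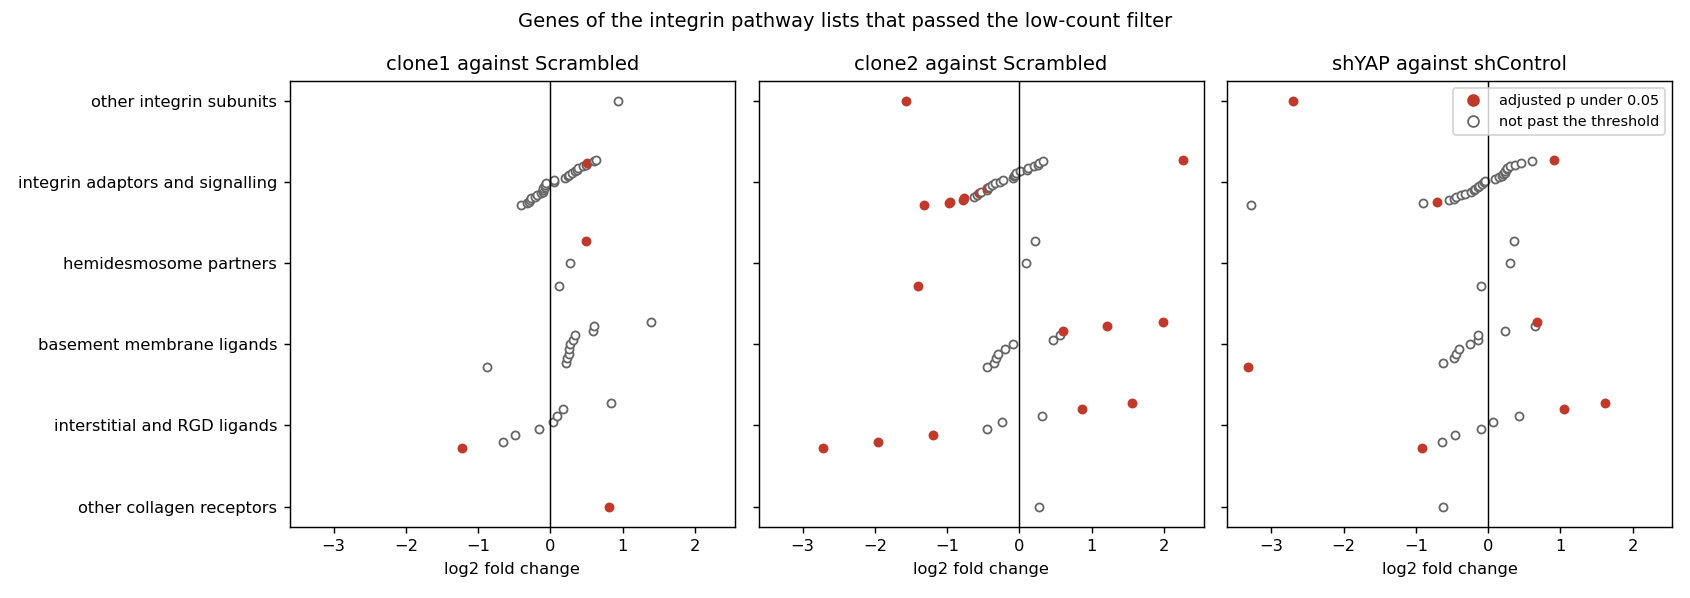
Log2 fold change of each tested gene of 6 integrin pathway lists in clone1 against Scrambled (left), clone2 against Scrambled (middle) and shYAP against shControl (right), where red points passed an adjusted p of 0.05. Among adaptors and signalling genes, 7 lie lower and 1 higher past the threshold in clone2, and 0 lower and 1 higher in clone1.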

How the data were processed

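The authors deposited expected counts per gene, whole numbers not scaled between libraries, and the submitters' processing notes name Salmon 1.3.0 and build mm10. The libraries were poly(A)-selected and strand-specific, per the labels' protocols, and the annotation release is not given in the sources used here. The members, lists and naming rule were chosen with earlier results of these data known. Expected counts were rounded, filtered with filterByExpr (minimum count 10, minimum total 15), normalised by TMM and tested with edgeR 4.0.16 (robust quasi-likelihood, two-sided) in R 4.3.3, with Benjamini-Hochberg adjustment over all genes and a threshold of 0.05. The 21 CRISPR libraries shared a fit, the 13 hairpin libraries another, and contrasts across experiments used all 34. CPM values were computed here from TMM-normalised totals of the 34-library fit, log2 CPM with a prior count of 2.

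Gene positions and merged exon lengths came from GENCODE M21 (mm10). Entries with an Ensembl ID but no symbol, 1243 in all, held at most 0.0475% of any library and were kept. Genes named from a list were up to 4 per list and comparison, taken by absolute fold change among called genes whose average log2 CPM reached 1. Some of those are left out of the text, and Mfge8 in clone2 against Scrambled is named outside this rule. The 5 genes most like Itga2 left out symbols of predicted genes. Some results are not reported here. Antisense or overlapping models lie at Itga5, Itga6, Itgav and Itgb4, so their counts carry that uncertainty.

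Replicate numbers did not pair libraries: deviations of 18 same-numbered pairs correlated at -0.0688 to 0.0764, and the main fits had no block. All 34 libraries resembled a library of their own group most, and no pair exceeded r = 0.974 across genes. Totals ran from 883253 counts (clone1 replicate 2) to 6597099, which limits precision for members with few counts. Alternatives were DESeq2 size factors, no filter, the Wald test of DESeq2 1.42.0, the replicate block, other sets of libraries in the fit, subsets by library number, shControl as control, and leaving out single libraries. The steps were tested on simulated data.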

Additional observations from a re-analysis of the deposited data

Results flagged for a closer look

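Of 28 sets of a member's libraries in groups of 9 or 10, 3 held a library flagged by Dixon's test. These were Itga5 in shControl replicate 10 (0.566 CPM, from 3 counts), Itgb8 in clone2 replicate 7 (0.221 CPM, from 1 count) and Itgb8 in shControl replicate 7 (0.251 CPM, from 1 count). In all 3 sets every other library held 0 counts. A set with counts in only 1 library is flagged whatever the count, so these flags carry no information on outliers.

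The effects of the 2 knockout clones differed, by the test of clone2 against clone1 (edgeR, adjusted p from 1.23e-14 to 0.0317), for 6 of the 7 tested members. Of all 11514 genes, 49.1% passed the same test. The Itgb4 call was lost in 4 of 9 alternatives and the Itgb5 call in 1 of 9. The log2 differences were -0.607 for Itga3, -1.51 for Itga6, -0.395 for Itgb1, -0.307 for Itgb4, 0.943 for Itgb5 and -0.788 for Itgb6. The knockout effect differed from the shYAP effect by 1.12 for Itgav and 2.87 for Itgb5, in a test that 18.8% of all 11960 genes passed.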

How the results depend on the processing

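Of 624 values of members under the alternatives, 566 kept direction and side of the threshold, 29 lost a call, 4 gained one, 3 untested values moved and 22 changed sign, none of which had passed the test; all 50 group levels kept within 1 SD under DESeq2 size factors. Of 521 values of the other named genes, 443 kept both, 77 lost a call and 1 changed sign, Spp1 over both clones with shControl as control (0.104). The cause was not tested for these changes, beyond the fewer libraries of some fits. With shControl as control, signs also changed for Itga2 in clone1 (0.0845), Itgb6 in clone1 (0.0278) and Itga3 in clone2 (-0.254), and 2503 genes were called in clone1, against 1459 with Scrambled. Between the clones Itgav changed sign without clone1 replicate 2 (-0.00459) and with knockout replicates 1 to 6 (-0.0908). Itga3 in clone2 did so with replicates 7 to 9 (-0.034), where 0 members passed in clone1. With shControl replicates 5 to 10, Itga2 in shYAP (0.218), Itga6 in the difference of effects (0.0133) and Itgb4 in Scrambled against shControl (0.0468) changed sign, and Itga2 in shYAP also without shControl replicate 3 (0.044).

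In 1 fit of all 34 libraries, 1 member was called in clone1 and 1 in shYAP, and 2065 genes in shYAP. With the replicate number as a block, which the labels do not tie to a shared culture and which was best matched in 3 of 18 pairs, 1603 genes were called over both clones, 1350 in clone1, 2957 in clone2 and 1730 in shYAP; Itga6 (0.108) and Itgb6 (0.0788) changed sign in the difference of effects, Itga6 over both clones lost its call (-0.185), and Itga6 in clone1 (0.565) and Itgb4 in the difference of effects (0.887) gained one.

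Leaving out each Scrambled library in turn, 1208 to 1374 genes were called over both clones (2027 with all), 779 to 1025 in clone1 with 0 to 2 members, and 102 to 195 in Scrambled against shControl (353 with all). Leaving out each shYAP library gave 412 to 515 genes in shYAP (1261 with all), and without the shallow shControl replicate 3 the counts were 1398 in shYAP and 349 in Scrambled against shControl. Over such fits the log2 value ran from -0.0301 to 0.334 for Itgb4 over both clones, from -0.185 to 0.18 for Itgb4 and from -0.0718 to 0.176 for Itga3 in clone2, from -0.187 to 0.176 for Itgb4 in Scrambled against shControl, and from -0.271 to 0.0762 for Itga2 in shYAP. In the difference of effects it ran from -0.116 to 0.0674 for Itga6 and from -0.241 to 0.159 for Itgb6. Untested values of Itga2 moved to -2.06 over both clones and -4.2 in clone2 with shControl as control, and to -2.1 in the difference of effects with the block.

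Depth limits Itga2 in clone2, Itgb5 in Scrambled, Itga5 and Itgb8 most, where a few counts set the level.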
